A study of Mus musculus with 84 samples.

Results

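Htatip2 (ENSMUSG00000039745.7) encodes the HIV-1 Tat interactive protein 2, also called TIP30 or CC3, and is a single gene of the 37310 gene IDs counted in mouse liver. The gene was chosen because its response to dioxin was already known from the same libraries, and its rows were found by matching gene ID to symbol in the authors' deposited table. Its level is given in all 28 groups of the study, together with that of Cyp1a2, which encodes a dioxin-inducible cytochrome P450.

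TIP30 belongs to the short-chain dehydrogenase/reductase family and is known as a tumour suppressor: mice that lack it develop liver tumours. The protein binds importin beta, which carries cargo into the nucleus, and takes part in the trafficking of the epidermal growth factor receptor after endocytosis. The aryl hydrocarbon receptor (AHR) is a transcription factor that binds dioxins in the cytosol, moves to the nucleus, pairs with ARNT and binds DNA at sites with the core GCGTG. Cyp1a1 and Cyp1a2 are its classical target genes in liver, Htatip2 is listed among AHR-responsive genes of mouse liver, and mouse strains carry Ahr alleles whose proteins bind dioxin with different affinity.

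RNA was sequenced from 84 livers labelled as taken from pregnant females of 14 strains, with 3 libraries for each strain and treatment. TCDD (2,3,7,8-tetrachlorodibenzo-p-dioxin), a long-lived AHR ligand, was given by mouth in peanut butter at 0.1 µg/kg on each of 10 days, and vehicle mice had peanut butter without TCDD. Ages are labelled as 6 to 8 weeks when dosing began and 7 to 9 weeks when it ended. Of the 14, 10 are inbred strains: 129S1/SVIMJ, A/J, BALB/CJ, C3HeB/FeJ, CBA/J, C57BL6/J, DBA1/J, FVB/NJ, NZO/HILTJ and NOD/SHILTJ. CC019/TauUnc is a line of the Collaborative Cross, and BXD-40/TyJ, BXD91/2RwwJ and BXD100/RwwJ are lines bred from crosses of C57BL/6J with DBA/2J and inbred again. The labels do not say that each library came from a mouse of its own, so the p-values below measure the spread between libraries, which may be technical in part. Chi-square per degree of freedom between libraries of a group was 12.8 to 206, above that of repeat counts of the same library.

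Each library held 9122406 to 19689624 counts in genes, with a median of 16202909. Levels are given as CPM, the counts of the gene scaled to a fixed total of gene counts in each library. Hepatocyte markers (Alb, Apoa1, Ttr, Serpina1c, Tat and Cps1) summed to 55400 to 106000 CPM in TCDD libraries and 53400 to 103000 CPM in vehicle libraries, and none of the 6 was at 0 in all libraries. In bulk RNA, fewer cells of a type and less RNA per cell cannot be told apart.

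Before the results, the libraries that stood apart in sex-biased genes are given, since they include the lowest Htatip2 level of all. The library labelled C57BL6/J TCDD replicate 3 went against its label of a pregnant female: its Y-linked genes (Ddx3y, Kdm5d, Eif2s3y and Uty) summed to 128.5 CPM, against at most 0.0691 CPM in the 82 libraries other than it and CC019/TauUnc vehicle replicate 1. Its Xist level was 0.219 CPM, against 51.97 to 678.6 CPM in those 82 libraries. The genes that are higher in male liver (Mup20, Cyp4a12a, Cyp2d9, Elovl3 and Cyp7b1) summed to 1844 CPM there and to 853.4 CPM in CC019/TauUnc vehicle replicate 1, against 21.88 to 474.2 CPM in the 82 libraries. The genes that are higher in female liver (Cyp2b13, Cyp3a41a, Sult2a1, A1bg and Cyp2a4) summed to 3.617 CPM and 981.7 CPM in the same pair of libraries, against 1482 to 20850 CPM in the 82. CC019/TauUnc vehicle replicate 1 had no Y-linked count and a Xist level of 345.1 CPM. Results that rest on either library are given with and without it, except where stated.

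The 250 bases before the start of Htatip2, Cyp1a1 and Cyp1a2 are shown because all 3 genes are read against each other below. The sequences are those of RefSeq, build GRCm38.p6, whose genome is that of C57BL/6J and not of the other strains: Htatip2 at chr7:49758856-49759105 on the plus strand, Cyp1a1 at chr9:57697363-57697612 on the plus strand and Cyp1a2 at chr9:57683656-57683905 on the minus strand. Each runs 5′ to 3′ towards the start, and capitals mark GCGTG or its reverse complement CACGC.
Htatip2: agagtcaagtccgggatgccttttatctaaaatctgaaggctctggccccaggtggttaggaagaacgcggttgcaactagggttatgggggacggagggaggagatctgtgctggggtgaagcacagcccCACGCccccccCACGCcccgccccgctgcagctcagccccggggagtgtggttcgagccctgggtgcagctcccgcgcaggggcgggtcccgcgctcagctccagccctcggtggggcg
Cyp1a1: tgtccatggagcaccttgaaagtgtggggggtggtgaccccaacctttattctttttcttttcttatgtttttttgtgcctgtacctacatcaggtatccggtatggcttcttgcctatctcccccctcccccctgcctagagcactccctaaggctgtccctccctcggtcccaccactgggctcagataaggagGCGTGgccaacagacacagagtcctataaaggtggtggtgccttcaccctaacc
Cyp1a2: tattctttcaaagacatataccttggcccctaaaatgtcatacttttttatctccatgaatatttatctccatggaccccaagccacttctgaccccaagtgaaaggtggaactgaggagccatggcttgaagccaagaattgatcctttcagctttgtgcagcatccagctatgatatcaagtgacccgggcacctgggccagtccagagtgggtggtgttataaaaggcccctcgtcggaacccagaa
The Htatip2 window held 2 matches, both as CACGC, 108 and 119 bases before the start. The Cyp1a1 window held 1 match as GCGTG, 54 bases before the start, and the Cyp1a2 window held 0. Of 32851 such windows of 250 bases, searched on both strands, 28.2% held at least 1 match and 8.63% held at least 2. The window before another annotated start of Htatip2, at chr7:49759262-49759511, held 0 matches.

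Htatip2 was higher with TCDD than with vehicle in all 14 strains by the fitted change, and by very different amounts. Over the 42 TCDD libraries the level had a lowest value of 36.52, a median of 65.07 and a highest value of 179.1 CPM, against 16.86, 46.85 and 87.28 CPM over the 42 vehicle libraries. The mean of the 14 within-strain log2 changes, TCDD over vehicle, was 0.70 ± 0.06 (SE), a 1.63-fold higher level, and 0.73 when the library labelled C57BL6/J TCDD replicate 3 was left out. For Cyp1a2 the same mean was 2.29 ± 0.12, with 14 strains higher, and for Cyp1a1 it was 5.08 ± 0.31, with 12 strains higher. These changes are given without a p for Htatip2, because the gene was chosen on them.

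**Figure D1:**
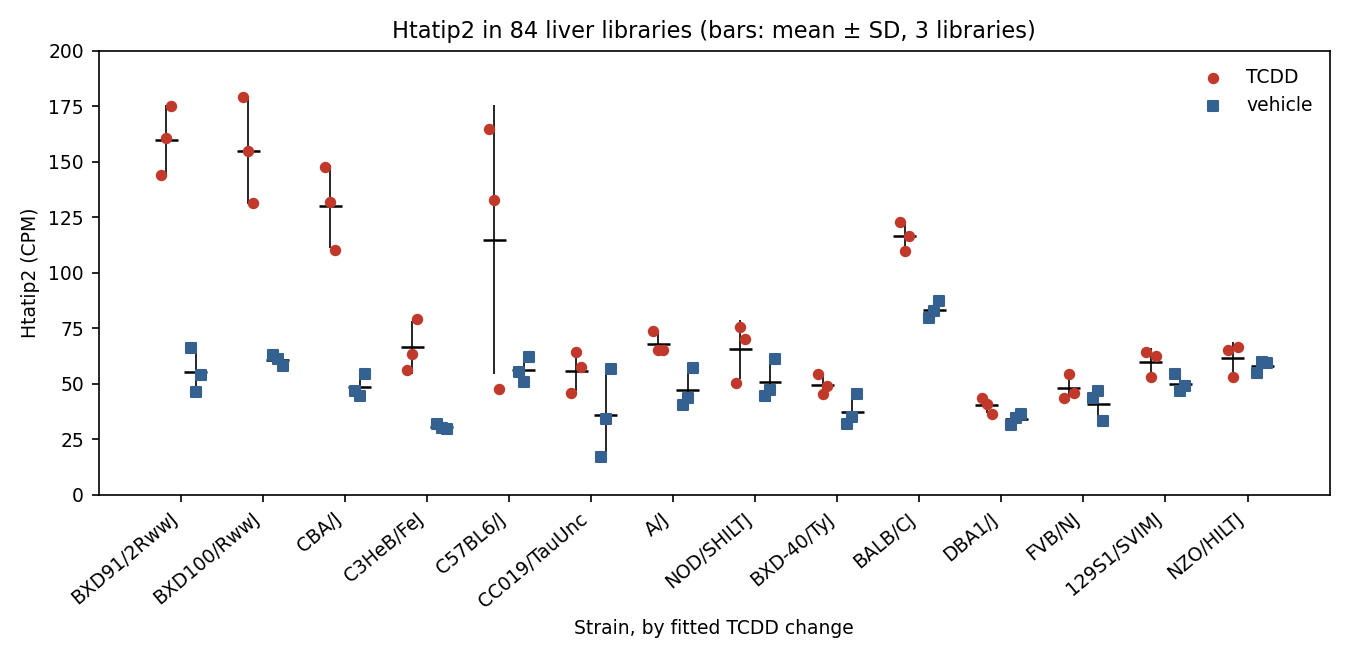
Htatip2 level (CPM, vertical axis) in each of the 84 liver libraries, by strain in the order of the fitted TCDD change, with TCDD (circles) left of vehicle (squares); bars give the mean and SD of the 3 libraries. TCDD libraries of BXD91/2RwwJ, BXD100/RwwJ and CBA/J lie between 110.5 and 179.1 CPM, while NZO/HILTJ libraries of both treatments lie between 53.2 and 66.34 CPM.

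In 4 strains the TCDD libraries stood well above the vehicle libraries. BXD91/2RwwJ had 144.1, 160.8 and 174.95 CPM with TCDD, against 66.18, 46.05 and 53.99 CPM with vehicle. BXD100/RwwJ had 179.1, 154.8 and 131.2 CPM with TCDD, against 62.8, 61.13 and 57.83 CPM with vehicle. The lowest TCDD library was at 2.18 times the highest vehicle library in BXD91/2RwwJ and at 2.09 times in BXD100/RwwJ. CBA/J had 147.6, 131.8 and 110.5 CPM with TCDD, against 46.75, 44.66 and 54.43 CPM with vehicle. C3HeB/FeJ had 56.15, 63.53 and 79.34 CPM with TCDD, against 31.83, 30.23 and 29.72 CPM with vehicle. C3HeB/FeJ thus had a large fold from a low start: its highest TCDD library was below the lowest TCDD library of CBA/J. The fitted log2 change was 1.23 ± 0.25 in C3HeB/FeJ, 1.31 ± 0.25 for CBA/J, 1.36 ± 0.24 for BXD100/RwwJ and 1.57 ± 0.25 for BXD91/2RwwJ (SE, n = 3 libraries a group).

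C57BL6/J had 164.6, 132.6 and 47.47 CPM with TCDD, against 55.35, 50.95 and 62.03 CPM with vehicle. The third TCDD value is that of the library that went against its label; it lies below all 3 vehicle libraries, and the remaining pair lies above them. The fitted change was 1.06 ± 0.24 with that library and 1.41 ± 0.23 without it, and it was 0.66 ± 0.25 when TCDD replicate 1 was left out instead. The TCDD mean was 114.9 ± 60.5 CPM (SD, n = 3) with it and 148.6 ± 22.6 CPM (n = 2) without it. The same library had 479.4 CPM of Cyp1a2, where the other C57BL6/J TCDD libraries averaged 8294 ± 922 CPM (n = 2).

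BALB/CJ and A/J had smaller gaps between treatments. BALB/CJ had 122.9, 109.9 and 116.5 CPM with TCDD, against 79.61, 82.93 and 87.28 CPM with vehicle. Both of its groups were high, and its change was 0.40 ± 0.24. A/J had 73.8, 65.13 and 65.01 CPM with TCDD, against 40.5, 43.42 and 56.96 CPM with vehicle, a change of 0.62 ± 0.24. DBA1/J had 43.39, 40.64 and 36.52 CPM with TCDD, against 31.39, 34.61 and 36.29 CPM with vehicle. Its groups did not overlap by a margin of 1.01 times, and its change was 0.25 ± 0.24.

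The groups overlapped in the remaining 6 strains. CC019/TauUnc had 45.75, 64.07 and 57.49 CPM with TCDD, against 16.86, 34.01 and 56.77 CPM with vehicle, the widest vehicle spread of any strain. Its change of 0.64 ± 0.24 was 1.14 ± 0.26 without vehicle replicate 3, and 0.28 ± 0.20 without vehicle replicate 1 and the C57BL6/J library that went against its label. NOD/SHILTJ had 50.4, 75.64 and 70.17 CPM with TCDD, against 44.48, 46.95 and 61.33 CPM with vehicle, a change of 0.48 ± 0.24. BXD-40/TyJ had 54.37, 45.13 and 48.73 CPM with TCDD, against 31.82, 34.84 and 45.51 CPM with vehicle, a change of 0.41 ± 0.24. In both strains only the lowest TCDD library reached into the vehicle range. FVB/NJ had 43.39, 54.58 and 45.71 CPM with TCDD, against 43.35, 46.49 and 33.11 CPM with vehicle, a change of 0.23 ± 0.24. In 129S1/SVIMJ the values were 64.42, 53.07 and 62.25 CPM with TCDD, against 54.37, 46.63 and 48.86 CPM with vehicle, a change of 0.21 ± 0.24. In NZO/HILTJ they were 65.21, 53.2 and 66.34 CPM with TCDD, against 54.88, 59.71 and 59.43 CPM with vehicle, a change of 0.09 ± 0.24 that was -0.0033 without TCDD replicate 1. With each strain fitted alone, the changes were 0.24 ± 0.15 in FVB/NJ, 0.21 ± 0.13 in 129S1/SVIMJ and 0.09 ± 0.15 in NZO/HILTJ.

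All 3 TCDD libraries were above all 3 vehicle libraries in 7 strains for Htatip2, in 11 for Cyp1a2, and in 7 or more for 8 of the 16195 genes tested (0.0494%). Besides Cyp1a2 and Htatip2, those 8 genes were Cyp1a1, Cyb5a, Pir, C1qbp, Slc46a3 and Ces2c. Within single strains such a gap was found for 3.87% of genes in BXD91/2RwwJ, 3.27% in BXD100/RwwJ, 9.17% for CBA/J, 2.33% for C3HeB/FeJ, 4.17% for A/J, 8.24% for BALB/CJ and 3.4% for DBA1/J. In the strains where Htatip2 overlapped, the share of genes was 4.02% in C57BL6/J, 4.01% in CC019/TauUnc, 5.92% in NOD/SHILTJ, 11.9% in BXD-40/TyJ, 5.29% in FVB/NJ, 8.02% in 129S1/SVIMJ and 4.11% in NZO/HILTJ. These counts use the contrast on which Htatip2 was chosen and are given as a description. Without the 2 libraries that stood apart, the TCDD and vehicle groups were separate in 8 strains, C57BL6/J being added.

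With TCDD the strains fell in the order BXD91/2RwwJ (159.9 ± 15.5 CPM), BXD100/RwwJ (155 ± 23.9), CBA/J (130 ± 18.7), BALB/CJ (116.4 ± 6.53) and C57BL6/J (114.9 ± 60.5), as mean ± SD of 3 libraries. Then came A/J (67.98 ± 5.04), C3HeB/FeJ (66.34 ± 11.8), NOD/SHILTJ (65.41 ± 13.3), NZO/HILTJ (61.58 ± 7.28), 129S1/SVIMJ (59.92 ± 6.02), CC019/TauUnc (55.77 ± 9.28), BXD-40/TyJ (49.41 ± 4.66), FVB/NJ (47.89 ± 5.9) and DBA1/J (40.18 ± 3.46). The highest of these means was 3.98 times the lowest. Each strain's libraries overlapped those of its neighbour in this order, apart from FVB/NJ and DBA1/J, whose nearest libraries were both at 43.39 CPM. In log2 CPM, scaled as described below, these 2 strains overlapped as well, with FVB/NJ replicate 1 at 5.40 and DBA1/J replicate 1 at 5.48. The steps from BXD100/RwwJ to CBA/J and from FVB/NJ to DBA1/J were the only ones wider than the larger of the neighbours' SDs. Without the library that went against its label, C57BL6/J stood between BXD100/RwwJ and CBA/J, and BALB/CJ came next above A/J. The widest step of that order was the one from BALB/CJ to A/J, 48.5 CPM beside a larger SD of 6.53 CPM, and the libraries of these 2 strains did not overlap. Besides it, only the step from FVB/NJ to DBA1/J was then wider than the larger SD.

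Strain held 45.9% of the variance of log2 CPM of Htatip2, treatment 27.1%, the combination of strain and treatment 12.4% and differences between libraries of a group 14.6%. The SD within groups was 0.31 on the log2 scale. Of the 1513 genes of similar level, 75.6% had a smaller SD within groups than Htatip2, whose own level was above that of 85.5% of the genes tested. The C57BL6/J TCDD and CC019/TauUnc vehicle groups held 62.1% of the sum of squares within groups. Without the 2 libraries that stood apart, the SD within groups was 0.21, and 45.9% of the same genes had a smaller one.

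The comparison of strains without TCDD asks whether Htatip2 differs between strains before any treatment, and it is not the contrast on which the gene was chosen. Vehicle levels differed between strains (F = 4.69 on 13 contrasts, adjusted p = 8.8e-05, edgeR quasi-likelihood test with Benjamini-Hochberg adjustment over all genes). The same test called 46.8% of all genes, and 15.2% of genes had a smaller p, so a strain difference in vehicle liver was common among genes. BALB/CJ was highest, with 83.28 ± 3.85 CPM against 46.58 CPM over the other 13 strains. Its log2 difference was 0.80 ± 0.16 (adjusted p = 2.5e-04 by edgeR, a call made for 7.76% of genes), and its lowest library, at 79.61 CPM, was above every vehicle library of the other strains. C3HeB/FeJ was lowest, with 30.59 ± 1.1 CPM against 50.63 CPM over the other 13, a log2 difference of -0.61 ± 0.19 (adjusted p = 0.0322 by edgeR, a call made for 7.14% of genes). This call was lost when any of its own 3 vehicle libraries was left out, with adjusted p between 0.0922 and 0.139 by edgeR and a difference between -0.68 and -0.59. It was kept at -0.62 (adjusted p = 0.00787, edgeR) once the C57BL6/J library that went against its label was dropped. Dropping both libraries that stood apart gave -0.64 (adjusted p = 7.4e-04, edgeR). The adjusted p by edgeR was 0.00989 with trends on GC and length removed, and 0.0487 with no filter on low counts.

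DBA1/J came next to C3HeB/FeJ, with 34.1 ± 2.49 CPM, but its difference of -0.54 ± 0.19 missed the threshold (adjusted p = 0.0879 by edgeR), where 5.03% of genes were called. It passed at -0.54 (adjusted p = 0.0293, edgeR) when the library labelled C57BL6/J TCDD replicate 3 was left out. CC019/TauUnc had 35.88 ± 20 CPM with all 3 vehicle libraries and 45.39 ± 16.1 CPM (n = 2) without replicate 1. Its difference was -0.41 ± 0.19 (adjusted p = 0.161 by edgeR), where 12.3% of genes were called, and it was -0.06 (adjusted p = 0.935, edgeR) without vehicle replicate 1 and -0.90 (adjusted p = 0.00266, edgeR) without vehicle replicate 3. The other 10 strains had differences from -0.40 in BXD-40/TyJ to 0.36 in BXD100/RwwJ, none of which passed. The same tests called 20% of all genes in CBA/J, 13.6% in NOD/SHILTJ, 10.4% in A/J, 10.1% in NZO/HILTJ, 7.91% in 129S1/SVIMJ, 7.16% in C57BL6/J, 6.55% in FVB/NJ, 6.46% in BXD91/2RwwJ, 6.27% in BXD-40/TyJ and 4.48% in BXD100/RwwJ.

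**Figure D2:**
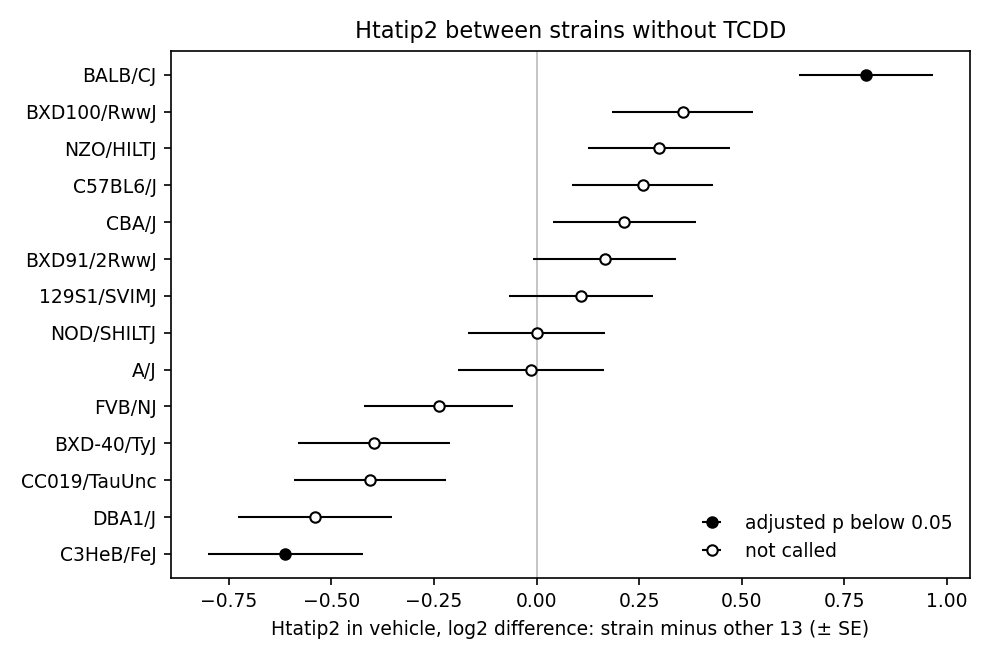
Log2 difference of the fitted Htatip2 level in vehicle liver, each strain minus the mean of the other 13 (horizontal axis), with the standard error as bars; filled circles have an adjusted p below 0.05 and open circles do not. BALB/CJ stands at 0.80 and C3HeB/FeJ at -0.61.

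Between these ends the vehicle means in CPM were BXD100/RwwJ 60.59 ± 2.53, NZO/HILTJ 58.01 ± 2.71, C57BL6/J 56.11 ± 5.58, BXD91/2RwwJ 55.41 ± 10.1, NOD/SHILTJ 50.92 ± 9.1, 129S1/SVIMJ 49.95 ± 3.98, CBA/J 48.61 ± 5.14, A/J 46.96 ± 8.78, FVB/NJ 40.98 ± 7 and BXD-40/TyJ 37.39 ± 7.19 (SD, n = 3). The highest vehicle mean, in BALB/CJ, was 2.72 times the lowest, in C3HeB/FeJ. Only the steps from BALB/CJ to BXD100/RwwJ and from DBA1/J to C3HeB/FeJ were wider than the larger of the neighbours' SDs. The order under vehicle was not that under TCDD: C3HeB/FeJ was the seventh highest with TCDD and the lowest without it. In CBA/J the fitted log2 difference from the other strains was 0.21 ± 0.17, and 0.02 with trends on GC and length removed, while its mean of 48.61 CPM was below the 49.24 CPM of the other 13.

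The relation of Htatip2 to Cyp1a2 was read within each treatment. With TCDD, Cyp1a2 averaged 9984 ± 1160 CPM in BXD91/2RwwJ, 9148 ± 648 CPM in CBA/J and 7223 ± 542 CPM in BXD100/RwwJ, and at the other end 555.2 ± 102 CPM in NOD/SHILTJ and 561.3 ± 189 CPM in NZO/HILTJ (SD, n = 3). Over the 42 TCDD libraries, log2 CPM of the 2 genes had a Pearson r of 0.72 and a Spearman rho of 0.67, with a slope of 0.32 on the log2 scale. When the library labelled C57BL6/J TCDD replicate 3 was left out, r was 0.71. Over the 42 vehicle libraries r was -0.16 and rho was -0.02. The points of a strain share a genotype and the 2 genes share each library and its depth, and the relation is part of how Htatip2 was chosen, so no p is given.

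**Figure D3:**
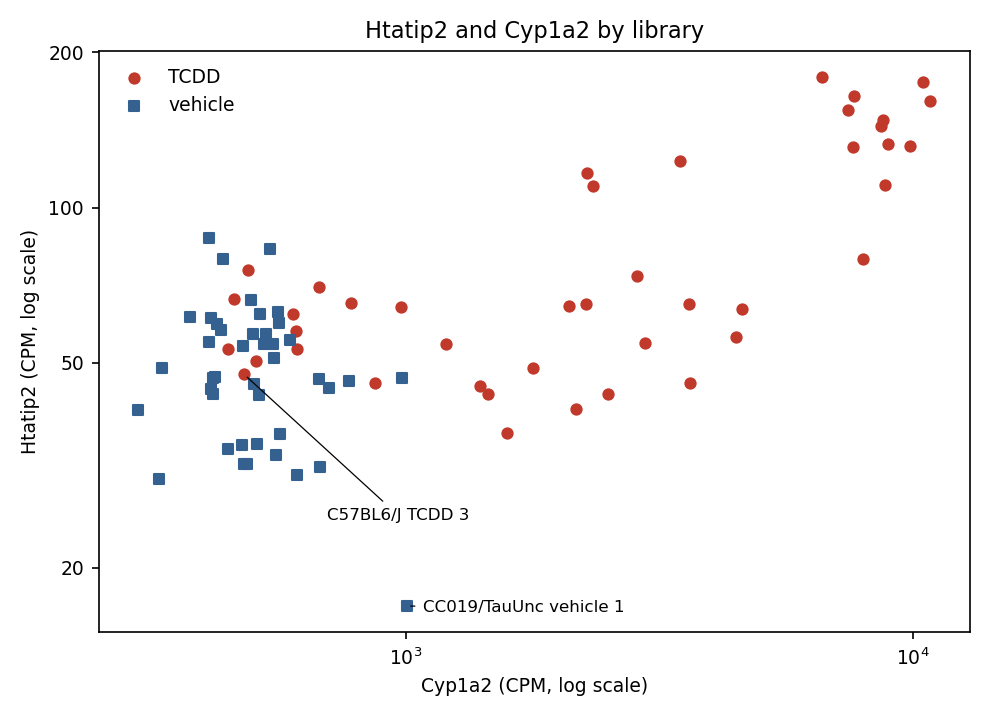
Htatip2 against Cyp1a2 in each library (CPM on both axes, log scales), TCDD as circles and vehicle as squares, with the 2 libraries that stood apart named. Of the 12 TCDD libraries with the highest Cyp1a2, 11 hold Htatip2 levels of 110.5 to 179.1 CPM and C3HeB/FeJ replicate 3 holds 79.34 CPM, and vehicle libraries form a cloud with no clear slope.

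The strains' changes showed the same relation in another form. Over 14 strains the log2 change of Htatip2 and that of Cyp1a2 had an r of 0.78 and a rho of 0.77, and an r of 0.89 without the 2 libraries that stood apart. The strains are given below in 2 sets, read off the widest step in the Htatip2 change itself, as a description. BXD91/2RwwJ, BXD100/RwwJ, CBA/J, C3HeB/FeJ and C57BL6/J had Cyp1a2 changes of 3.37 to 4.10 and Htatip2 changes of 1.06 to 1.57. The other 9 strains had Cyp1a2 changes of 0.29 to 2.94, a range wider than that of the 5, while their Htatip2 changes ran from 0.09 to 0.64. Without the 2 libraries that stood apart, the 5 strains had Cyp1a2 changes of 3.49 to 4.10 and Htatip2 changes of 1.22 to 1.58. The other 9 then had Cyp1a2 changes of 0.29 to 2.94 and Htatip2 changes of 0.09 to 0.61.

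Single strains differed in how the changes of the 2 genes compared. FVB/NJ had a Cyp1a2 level of 3035 ± 573 CPM with TCDD and 580.6 ± 84.2 CPM with vehicle, a log2 change of 2.39 ± 0.46, beside a Htatip2 change of 0.23 ± 0.24. CC019/TauUnc had 817.8 ± 191 CPM of Cyp1a2 with TCDD and 659.3 ± 300 CPM with vehicle, a change of 0.31 ± 0.43, beside a Htatip2 change of 0.64 ± 0.24. Without the 2 libraries that stood apart, its vehicle Cyp1a2 level was 487.6 CPM (n = 2) and its changes were 0.73 ± 0.37 for Cyp1a2 and 0.28 ± 0.20 for Htatip2. BALB/CJ and FVB/NJ had similar Cyp1a2 changes, 2.47 and 2.39, and Htatip2 levels of 116.4 and 47.89 CPM with TCDD, against 83.28 and 40.98 CPM with vehicle. A/J had a Cyp1a2 change of 2.94 ± 0.47 and C57BL6/J of 3.37 ± 0.47, beside Htatip2 changes of 0.62 and 1.06. In C57BL6/J these were 3.92 ± 0.38 for Cyp1a2 and 1.43 ± 0.19 for Htatip2 without the 2 libraries that stood apart.

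**Figure D4:**
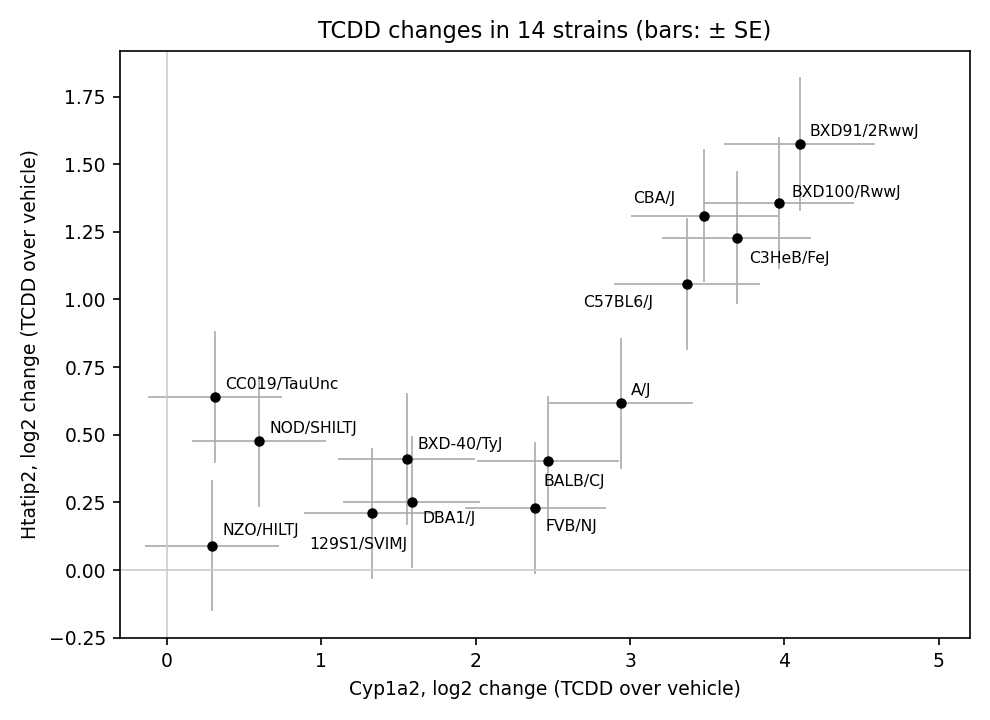
Log2 change of Htatip2 (vertical axis) against that of Cyp1a2 (horizontal axis), TCDD over vehicle, in the 14 strains, with standard errors as bars. In 5 strains both changes are high; in the other 9 the Cyp1a2 change runs from 0.29 to 2.94 and the Htatip2 change stays between 0.09 and 0.64.

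Within groups, the r of the 2 genes in each treatment depended on which libraries were included. For deviations from group means, r was 0.77 over 42 TCDD libraries and -0.12 over 42 vehicle libraries. The TCDD value fell to 0.41 once the C57BL6/J library that went against its label was dropped. In the 10 strains that are neither BXD nor CC019/TauUnc, the vehicle value was 0.39. CC019/TauUnc vehicle replicate 1 lay below its group in Htatip2 and above it in Cyp1a2, by a log2 deviation of 0.69. The vehicle value without that library alone is not given, so a difference between treatments cannot be read from 0.77 and -0.12. Pooled over all 84 deviations, r was 0.49. This value was 0.13 when the library labelled C57BL6/J TCDD replicate 3 was left out, and 0.37 with CC019/TauUnc vehicle replicate 1 left out as well. These 2 libraries were also the farthest below their groups in Htatip2, by log2 deviations of -1.08 and -0.92. The deviations of Htatip2 followed the summed level of the female-biased liver genes with an r of 0.66 over 84 libraries and 0.06 over the 82 without this pair. For the male-biased genes r was -0.58 over 84 and -0.07 over 82. The part of these marker levels in the Htatip2 values of the 2 libraries was not tested. Muscle genes (Acta1, Ckm, Ttn, Mylpf, Tnnt3 and Myh4) had a median sum of 1.05 CPM in TCDD libraries and 0.877 CPM in vehicle libraries, with highest values of 306 CPM in BXD91/2RwwJ TCDD replicate 2 and 1790 CPM in A/J vehicle replicate 2. Over the 14 TCDD strain means their sum moved with Htatip2 at an r of 0.73, over the 14 vehicle means at -0.02, and within groups at -0.07. No member of the muscle list was at 0 in all libraries, and its part in the Htatip2 values was not tested. For the other lists of cell types, r with the Htatip2 deviations over the 82 libraries ran from -0.25 for cholangiocyte genes to 0.27 for hepatocyte genes. Htatip2 has a GC content of 53.6%, where the median gene tested has 50%, and its deviations moved with the library's slope of log2 level on GC content at an r of 0.40 over 84 libraries and 0.39 over 82. With trends on GC and length removed, the mean TCDD change was 0.69. In the same setting the change in BXD-40/TyJ was 0.25, against 0.41 with the trends left in. That strain's mean slopes on GC content were 0.172 in its TCDD libraries and -0.167 in its vehicle libraries, in log2 units per 10 percentage points, and their part in the change was not tested.

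Few other genes of the AHR battery passed the test. Of 16 genes of the AHR battery besides Htatip2, 14 passed the filter on low counts, 3 were called higher over the mean of the 14 strains and 0 were called lower, where 0.179% of all genes tested were called (0.154% higher and 0.0247% lower). The 3 were Cyp1a1 (adjusted p = 4.3e-19 by edgeR), Cyp1a2 at 2.29 ± 0.12, and Ugt1a6a, a UDP-glucuronosyltransferase, at 0.20 ± 0.05 (adjusted p = 0.0480 by edgeR). Cyp1a2 is given without a p, because its relation to Htatip2 is part of how Htatip2 was chosen. The list was chosen with earlier results of these data known, so the count is a description. Ugt1a6a shares exons with other Ugt1a genes, so its counts are uncertain. The adjusted p of Ugt1a6a was 0.0887 by edgeR without the filter on low counts. When each of the 84 libraries was left out in turn, 2 genes of the battery were called in 60 of the fits and 3 in 24. Nqo1, a quinone reductase, had a change of 0.28 ± 0.08 and averaged 12.46 CPM with TCDD and 10.33 CPM with vehicle, and missed the threshold (adjusted p = 0.157 by edgeR). The median change of the 14 genes was 0.20, beside -0.0033 over all genes tested, and 12 were positive. The 12 include Gsta1, which averaged only 0.341 CPM with TCDD and 0.146 CPM with vehicle and whose fitted change had no usable SE. Tiparp, an ADP-ribosyltransferase that limits AHR activity, was at -0.13 ± 0.12 (adjusted p = 0.956 by edgeR). Ahrr and Aldh3a1 were left out by the filter, with at most 10 and 5 counts in a library.

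No gene of the proteins linked with TIP30 was called, as was so for nearly all genes tested. All 15 were tested and 0 passed with edgeR, 3 of them at an unadjusted p below 0.05, where 0.179% of all genes were called and 5.94% had such a p. The count was 0 with DESeq2 as well. Egfr, the receptor whose trafficking involves TIP30, averaged 219.7 CPM with TCDD and 263.2 CPM with vehicle, a change of -0.22 ± 0.07 that was positive in 2 strains (adjusted p = 0.304 by edgeR). Myc, a transcription factor that drives growth, had 11.17 CPM with TCDD and 7.818 CPM with vehicle (0.43 ± 0.14, adjusted p = 0.439 by edgeR). Ran, the GTPase that powers nuclear import, was at 0.12 ± 0.04 (adjusted p = 0.599 by edgeR). The median change of the list was -0.0077. Kat5, which encodes the Tat-interactive protein TIP60, was at 0.03 ± 0.04, and Kpnb1, which encodes importin beta, at -0.02 ± 0.04, and neither passed.

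None of the genes tested beside Htatip2 on chromosome 7 passed for TCDD. The 5 protein-coding genes before it are Zdhhc13, Csrp3, E2f8, Nav2 and Dbx1, and the 5 after it are Prmt3, Slc6a5, Nell1, 4933405O20Rik and Ano5. Of these 10, 6 passed the filter and 0 were called by edgeR, with 1 unadjusted p below 0.05, beside the same 0.179% and 5.94% of all genes. That gene was Csrp3, a muscle LIM protein gene, with 48.42 CPM with TCDD and 43.48 CPM with vehicle (0.16 ± 0.07, adjusted p = 0.743, edgeR). Prmt3, a protein arginine methyltransferase gene that begins 4370 bases after Htatip2 on the same strand, had 7.981 CPM with TCDD and 7.918 CPM with vehicle (0.03 ± 0.07). No gene of the reference annotation, which is of another build than the counts, overlaps Htatip2. In vehicle liver, 3 of the 6 differed between strains by edgeR, namely E2f8, a transcription factor gene of the cell cycle (adjusted p = 0.00662), Nav2 (adjusted p = 7.5e-05) and Ano5 (adjusted p = 0.0103), where 46.8% of all genes did. Ano5 averaged only 0.0693 CPM with TCDD and 0.0873 CPM with vehicle. A gene this low passes the filter only through the libraries where it is higher, so its call can stem from the filter.

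By deviation from the mean of the library's strain, the genes most like Htatip2 over 84 libraries were Cyp1a1 and Cyp1a2, with a Pearson r of 0.84 each. Next came Nptx1, a neuronal pentraxin gene, at 0.78. It averaged 5.535 CPM with TCDD and 1.126 CPM with vehicle, a change of 1.67 ± 0.21 (adjusted p = 3.4e-07 by edgeR). Tmem86b, a lysoplasmalogenase gene (0.71), Cyb5a, cytochrome b5 (0.70), Selenbp1, a methanethiol oxidase gene (0.68), Slc46a3, a lysosomal transporter gene (0.67), Pir, an iron-binding nuclear protein gene (0.66), and the glutathione transferase genes Gstm1 (0.65) and Gsto1 (0.64) followed. Of these, Cyb5a (0.28 ± 0.04, adjusted p = 1.6e-05), Slc46a3 (0.52 ± 0.08, adjusted p = 1.9e-05), Pir (0.28 ± 0.05, adjusted p = 8.7e-04) and Gstm1 (0.30 ± 0.06, adjusted p = 0.00682) rose with TCDD by edgeR. Gstm1 has close paralogs, so its counts are uncertain. Tmem86b, Selenbp1 and Gsto1 had changes of 0.22, 0.22 and 0.15 that did not pass with all 84 libraries, and Tmem86b passed when the library labelled C57BL6/J TCDD replicate 3 was left out (0.24, adjusted p = 0.0200, edgeR). Because the deviations include the TCDD change, this order reflects response to treatment as well as likeness between libraries. The genes were picked by this order, so their adjusted p for the TCDD change are a description and give no separate support.

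**Figure D5:**
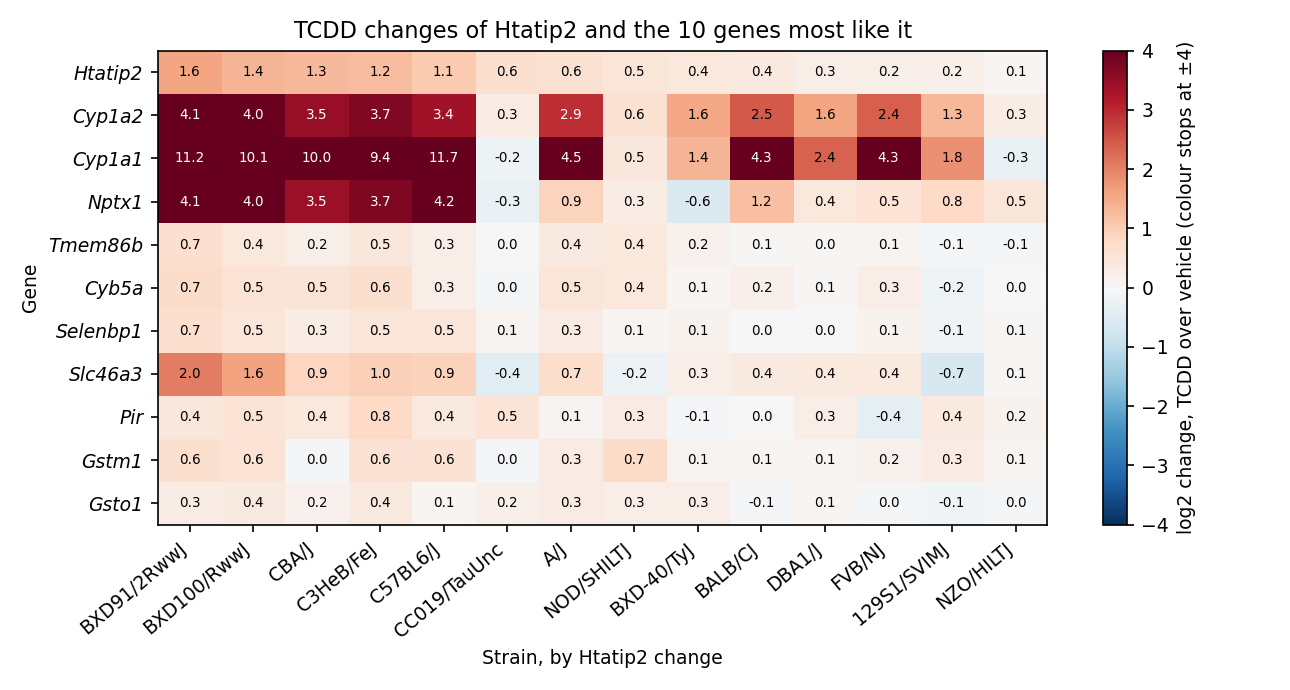
Log2 change (TCDD over vehicle, numbers and colour) of Htatip2 and the 10 genes most like it, by strain in the order of the Htatip2 change. Nptx1 and Cyp1a1 have their 5 highest values in the 5 strains at the left, while in NZO/HILTJ all 11 values lie between -0.30 and 0.48.

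By deviation from the group mean, other genes were most like Htatip2: Rdh16f2, a retinol dehydrogenase family gene (0.73), Gtpbp3, a mitochondrial tRNA modification gene (0.70), Cyp2c40, a cytochrome P450 gene (0.70), Proser2 (0.69) and Emc10, a subunit of the ER membrane complex (0.69). Without the 2 libraries that stood apart, these values were 0.51, 0.46, 0.12, 0.45 and 0.42, and Tmem205, at 0.70, was the highest. Cyp1a2 ranked 390th among all genes tested by this measure. Over the 14 vehicle strain means, the nearest genes were Tead2, a transcription factor gene (0.82), Dnaaf1, a gene of dynein arm assembly (0.79), Naxe, an NAD(P)HX epimerase gene (0.76), Igf2, a growth factor gene (0.76), and Swsap1 (0.75), of which Tead2, Dnaaf1 and Igf2 averaged below 2 CPM in both treatments. Cyp1a2 ranked 12923rd of 16195 there, and the points of each measure share their libraries.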

How the data were processed

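The authors deposited a table of whole-number counts per gene ID for each library. The submitters' processing notes name FastQC 0.11.5 for read quality, Trimmomatic 0.38 for trimming, Bowtie2 2.3.2.25 and the build mm9 for alignment, HTSeq 0.6.1 for counting and DESeq2 (version written as 3.8). File names mention other references for some strains, so strain differences in level can include differences between references; this was not tested. The log2 fold changes per strain in the authors' deposited table differ from those fitted here by at most 0.015 for Htatip2 and Cyp1a2. Reads outside genes (46.7% to 52.6%), ambiguous reads (0.442% to 1.41%) and reads aligned at several places (3.74% to 10.2%) entered no library size. The last share split by strain type: BXD lines had 3.74% to 4.35%, while all remaining strains had 7.8% to 10.2%. Reads outside genes made up 50% to 52.6% for BXD lines, against 46.7% to 50.7% for the rest. The part of this split in the Htatip2 levels of BXD lines was not tested. The kit does not mark strand.

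Counts were fitted in edgeR 4.0.16 (R 4.3.3) on the 28 groups together, by robust quasi-likelihood, with a common dispersion of 0.0651. TMM factors ran from 0.775 to 1.16, and filterByExpr kept 16195 of 37310 IDs. An adjusted p (Benjamini-Hochberg over all genes) below 0.05 is a call. CPM divide by total gene counts; log2 CPM add a prior count of 1 and divide by TMM-scaled totals. Chi-square per degree of freedom between libraries of a group was 12.8 to 206, so they are not repeat counts of the same library. Each was counted as a sample of its own, though this does not show that each came from its own mouse. Fits that leave out 1 library kept the genes and dispersion trend of the full fit. The steps were tested on simulated data.

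Htatip2, the gene lists and the tests were chosen with earlier results of these data known. Named genes are Htatip2, Cyp1a2 and Cyp1a1, the called members and 3 smallest p of each list, the neighbours, and the genes most like Htatip2 (10 by strain deviation, 5 by group deviation, 5 by vehicle mean; predicted genes and clones passed over). Others were named after their values were seen: C1qbp, Ces2c, Nqo1, Tiparp, Gsta1, Kat5, Kpnb1 and Tmem205. One further listed gene is not reported here.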

Additional observations from a re-analysis of the deposited data

How the results depend on the processing

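The mean change of Htatip2 with TCDD over the 14 strains lay between 0.59, in the 10 strains that are neither BXD nor CC019/TauUnc, and 0.73 (log2) over the alternatives: median-ratio size factors, no filter on low counts, DESeq2 1.42.0, and sets of libraries left out. Leaving out each library in turn gave 0.68 to 0.74. The vehicle difference between strains kept its call in each of these settings. Leaving out 1 library moved the change between 0.66 and 1.43 in C57BL6/J, 0.30 and 1.14 in CC019/TauUnc, and -0.0033, a change of sign without TCDD replicate 1, and 0.21 in NZO/HILTJ. The C57BL6/J change was 1.41 without its TCDD replicate 3, and also when A/J vehicle replicate 2 and a BXD-40/TyJ library (vehicle replicate 1) were left out with it. Without these libraries the A/J change was 0.52, against 0.62 with all, and the BXD-40/TyJ change 0.28, against 0.41. The C57BL6/J change was 1.43, and that of CC019/TauUnc 0.28, without C57BL6/J TCDD replicate 3 and CC019/TauUnc vehicle replicate 1. In the same 3 settings DBA1/J was below the other vehicle strains at -0.54 (adjusted p = 0.0293), -0.56 (0.0216) and -0.57 (0.00328) by edgeR, and BXD-40/TyJ at -0.42 (0.0418) in the last, where CC019/TauUnc was at -0.054. With offsets for GC content and length, DBA1/J was at -0.54 (adjusted p = 0.0455, edgeR). The removal of that pair, the 10 strains without C57BL6/J TCDD replicate 3 and the offsets were chosen after seeing the data. The cause of these moves was not tested.

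Leaving out each vehicle library of the strain gave -0.68 to -0.59 for C3HeB/FeJ against the other strains, -0.56 to -0.51 for DBA1/J, -0.57 to -0.27 for BXD-40/TyJ and -0.90 to -0.06 for CC019/TauUnc. The r of Htatip2 and Cyp1a2 over deviations from group means was 0.13 without C57BL6/J TCDD replicate 3, 0.37 without that pair of libraries, 0.76 in the 10 strains with C57BL6/J TCDD replicate 3 and 0.46 in the 10 strains without it. Genes called over the mean of the strains numbered 29, against 5 in the 10 strains and 25 to 42 in the other settings. No paired analysis was possible because replicate numbers follow the order of accessions only. The standard error of a strain's change was 0.241 to 0.246 in the joint fit, 0.175 to 0.198 without that pair, and 0.118 in BALB/CJ to 0.401 in C57BL6/J with each strain fitted alone.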
